A study of Mus musculus with 6 samples.

Results

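The genes described here encode the components that carry the insulin signal from phosphoinositide 3-kinase (PI3K) through AKT to mTOR, with the FOXO factors, the RabGAP proteins and the Rag GTPases that the pathway acts on or works with. They were chosen by name, 36 genes in all, with earlier results of these data known. A gene was kept where at least 1 of its probes had a detection p under 0.05 on at least 3 of 6 arrays. This left 29 of the 36 among 9478 genes tested. Total RNA came from 3 samples of Mvt-1 cells given 10 nM insulin for 90 min and from 3 given vehicle, all starved of serum for 16 h beforehand. Mvt-1 is a mouse mammary tumour line from animals with Myc and Vegf transgenes, so both groups carry whatever transgenes the line holds. Each sample was hybridised to a single-colour Illumina expression array with 45281 probes. Whether the 3 replicates of a group were separate cultures is not stated, so each p-value rests on a spread that could be technical. A lower signal from fewer cells of a kind and one from less RNA per cell cannot be told apart in such bulk samples.

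PI3K is a heterodimer of a catalytic subunit, which makes the lipid PIP3, and a regulatory subunit, which binds phosphorylated receptor adaptors and holds the catalytic subunit stable and quiet until then. PIP3 brings PDK1 and AKT to the membrane, where PDK1 and mTOR complex 2 phosphorylate AKT. AKT in turn inhibits GSK3, the TSC complex and the FOXO transcription factors, and mTOR complex 1, switched on by Rheb and recruited to lysosomes by the Rag GTPases, drives S6 kinase and protein synthesis. Most of this control acts on the proteins, whereas the arrays measured transcripts.

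No component of the pathway passed the test at 90 min: by limma with Benjamini-Hochberg adjustment over all genes, 0 of the 29 tested genes had an adjusted p under 0.05, where 0.464% of all genes did. Pik3r3, a PI3K regulatory subunit, came nearest, with a mean 1.43-fold higher with insulin and an adjusted p of 0.152. At an unadjusted p under 0.05 there were 4 of the 29, or 13.8%, against 1038 of all 9478 genes. Of these 4, 3 were higher with insulin (Pik3r3, Pik3r1 and Ptpn1), where 4.80% of all genes were higher at that level, and 1 was lower (Pik3ca), where 6.15% of all genes were lower. The insulin and vehicle arrays did not overlap in 4 of the 29, or 13.8%, against 15.9% of all genes. They were Pik3r3 and Ptpn1, higher with insulin (6.59% of all genes), and Pik3ca and Rheb, lower with insulin (9.34% of all genes). The share of pathway genes without overlap and the share at an unadjusted p under 0.05 both lay near those of all genes.

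Over all genes 44 passed the same test, 12 higher and 32 lower with insulin. One of them, shown because FOXO factors lie directly below AKT and picked with its value known, was Fbxo32, a ubiquitin ligase subunit whose gene FOXO factors switch on. It had log2 intensities of 5.34, 5.20 and 5.03 with insulin, against 6.35, 6.31 and 6.76 with vehicle. It fell, with no overlap between the groups and a log2 change of -1.29 ± 0.15 (standard error, SE, limma adjusted p = 0.00109). This was the lowest log2 change of all 9478 genes tested, and no gene had a smaller adjusted p. Fbxo32 is thus an extreme gene and cannot stand for FOXO targets in general, which were not examined as a set. Between 38.9% and 40.3% of probes were detected per array, and over the genes tested the lowest correlation between arrays was 0.988. Of 8 markers of mammary epithelium, Krt8, Krt18 and Cldn3 were detected on all 6 arrays, Cdh1 on 3 and Krt7 on 2, while Epcam, Krt19 and Cldn4 were detected on 0. Of 19 markers of other cell types, 17 had a probe and 4 were kept (Dcn, Acta2, Pdgfrb and Krt14). None of the 4 passed the test (smallest limma adjusted p = 0.587). Ptprc, Cd3e, Cdh5, Col1a1, Col1a2, Adipoq, Myh11 and Krt5 were detected on 0 arrays. Adgre1, Lep and Plin1 were each detected on 1 vehicle array, Kdr on 2 vehicle arrays and Pecam1 on 1 insulin array.

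Among the 29 genes, the values farthest above 0 were those of Pik3r3 and Pik3r1, which encode regulatory subunits of PI3K. Levels here are log2 intensities after background correction and quantile normalization, on a scale whose floor lies near 4. Pik3r3, which encodes p55gamma, stood at 8.98, 9.03 and 9.19 with insulin, against 8.36, 8.45 and 8.84 with vehicle. Every insulin array was above every vehicle array, and vehicle replicate 3 came closest. The means were 9.06 ± 0.11 with insulin and 8.55 ± 0.25 with vehicle (SD, n = 3 each), a log2 change of 0.51 ± 0.14 (SE) with a 95% interval from 0.21 to 0.82. A further, dimmer Pik3r3 probe gave 7.02, 6.94 and 7.13 with insulin, against 6.77, 6.35 and 6.55 with vehicle, again without overlap, and a log2 change of 0.47 ± 0.14 (SE). Under a trended, robust variance model Pik3r3 was the only pathway gene to pass (limma adjusted p = 0.0348, with the 15 alternatives spanning 0.0348 to 0.40), at the same log2 change of 0.51.

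Pik3r1 encodes p85alpha and its shorter forms, the regulatory subunits usually most abundant in cells. The brightest of its probes stood at 9.76, 9.90 and 9.84 with insulin, against 9.18, 9.82 and 9.48 with vehicle. The groups overlapped there, since vehicle replicate 2 lay above insulin replicate 1. The log2 change was 0.34 ± 0.15 (SE, limma adjusted p = 0.419), and without vehicle replicate 1, the lowest array, it was 0.19, while without vehicle replicate 2 it was 0.58. A second Pik3r1 probe of nearly the same brightness read 9.79, 9.90 and 9.91 with insulin, against 9.09, 9.54 and 9.49 with vehicle, and a further, dim one 5.27, 5.62 and 5.07 with insulin, against 4.97, 5.06 and 4.98 with vehicle. On these 2 probes the groups did not overlap, on the dim one by a narrow margin between insulin replicate 3 and vehicle replicate 2. The log2 changes were 0.50 ± 0.14 and 0.31 ± 0.15 (SE), so that all 3 detected probes for Pik3r1 had a positive sign. In a fit over all detected probes the second probe had an adjusted p of 0.262. The third regulatory subunit, Pik3r2 (p85beta), had a log2 change of -0.0035 ± 0.17 (SE), with a 95% interval from -0.37 to 0.36.

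The 2 catalytic subunits tested differed in sign. Pik3ca, which encodes the widely expressed p110alpha that acts downstream of the insulin receptor, stood at 6.81, 7.03 and 7.28 with insulin, against 7.34, 7.52 and 7.40 with vehicle. All 3 insulin arrays lay below all 3 vehicle arrays, by a narrow margin for insulin replicate 3. The mean was 1.30-fold lower with insulin, a log2 change of -0.38 ± 0.14 (SE, n = 3 per group, limma adjusted p = 0.334) with a 95% interval from -0.67 to -0.085. Pik3cb, the gene of p110beta, had a log2 change of 0.053 ± 0.13 (SE). The 3 probes for Pik3cd, the leukocyte-enriched p110delta, were detected on at most 2 arrays each, and the gene was not tested. Whether the changes of Pik3r3 and Pik3ca differ from each other was not tested.

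**Figure D1:**
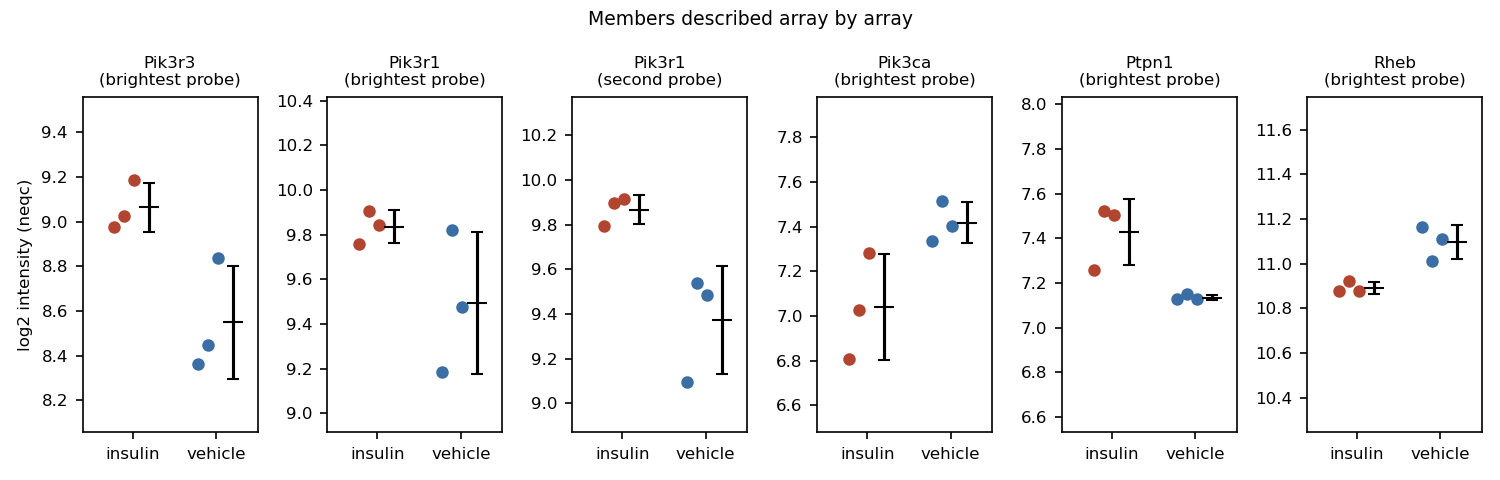
Log2 intensity after background correction and quantile normalization on each of the 3 insulin and 3 vehicle arrays for Pik3r3, Pik3r1 (brightest and second probe), Pik3ca, Ptpn1 and Rheb, with bars for the mean and SD of each group. Each panel spans the same height on the log2 scale, and the groups overlap in the panel of the brightest Pik3r1 probe only, where vehicle replicate 2 reaches 9.82.

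Phosphatases that dampen the signal were represented by 3 genes, all with a positive sign and none past the test. Ptpn1, the gene of the tyrosine phosphatase PTP1B that dephosphorylates the insulin receptor, stood at 7.26, 7.52 and 7.50 with insulin, against 7.13, 7.15 and 7.13 with vehicle. The vehicle arrays were tightly grouped and all insulin arrays lay above them, for a log2 change of 0.29 ± 0.13 (SE, limma adjusted p = 0.407). Phlpp1, which dephosphorylates AKT, had a log2 change of 0.21 ± 0.16 (SE), which was 0.027 without vehicle replicate 1, 0.39 without vehicle replicate 3 and 0.070 with the deposited normalized values. Inppl1, the PIP3 5-phosphatase SHIP2, had a log2 change of 0.033 ± 0.14 (SE). Further probes for Inppl1 gave 0.23 and 0.15.

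Among the kinases, Pdpk1, the gene of PDK1, had log2 changes of 0.27 ± 0.17 and 0.33 ± 0.20 (SE) on its 2 probes, with overlapping groups on both. The first of these was 0.10 without vehicle replicate 3 and 0.47 without vehicle replicate 2. Sgk1, a kinase related to AKT whose transcript responds to serum and steroid hormones in many cells, stood at 10.08, 9.99 and 9.82 with insulin, against 9.54, 9.94 and 10.01 with vehicle. The groups overlapped, and the log2 change was 0.13 ± 0.14 (SE, limma adjusted p = 0.804). Sgk3, a relative recruited to endosomes, had 7 probes, of which 1 was detected, with a log2 change of -0.019 ± 0.13 (SE). The single probe for Akt1 was detected on 1 array and those for Akt2 on 0 and 2 arrays. The values of these 3 probes lay between 4.16 and 4.71, near the floor, so neither kinase could be compared. The 2 GSK3 genes, whose products AKT inhibits, had log2 changes of 0.094 ± 0.16 for Gsk3a, a dim probe detected on 4 arrays, and 0.11 ± 0.13 for Gsk3b (SE).

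The TSC complex restrains Rheb, the GTPase that activates mTOR complex 1. Rheb stood at 10.88, 10.92 and 10.88 with insulin, against 11.16, 11.01 and 11.11 with vehicle. The separation was complete but small, at a log2 change of -0.20 ± 0.12 (SE, limma adjusted p = 0.576), and the 3 other Rheb probes were each detected on at most 1 array. Tsc1 had log2 changes of -0.26, 0.33 and -0.18 on its 3 detected probes, and Tsc2 had 0.16, -0.13 and -0.19, so that in both genes the probes differed in sign.

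By their brightest probes, subunits of the mTOR complexes lay closest to 0. The 7 genes had log2 changes between -0.14 and 0.048, with a median of 0.0059. For 7 of 7 the 95% interval stayed within a 1.5-fold change in either direction, against 87.9% of all genes. The same held for every tested gene of the phosphatases, GSK3 kinases, FOXO factors, RabGAP proteins and Rag GTPases. Mtor, the kinase itself, read 7.36, 7.33 and 7.40 with insulin, against 7.13, 7.22 and 7.61 with vehicle. Rptor, which presents substrates to complex 1, and Rictor, the defining subunit of complex 2, had log2 changes of 0.042 ± 0.13 and 0.021 ± 0.14 (SE). Dim further probes gave -0.20 for Rptor and from -0.18 to 0.19 for Rictor. Mapkap1, the gene of the complex 2 subunit SIN1, had 0.0059 ± 0.13 (SE) on its brightest probe. Its further detected probes gave -0.12 ± 0.14 and, on the dimmer of them, -0.32 ± 0.12 (SE). That dimmer probe read 7.08, 6.95 and 6.90 with insulin, against 7.25, 7.28 and 7.34 with vehicle, without overlap, and did not pass over all detected probes (limma adjusted p = 0.440). The shared subunit Mlst8 stood at -0.14 ± 0.14, the AKT substrate Akt1s1 at -0.039 ± 0.16 and the inhibitor Deptor at -0.0079 ± 0.14 on the log2 scale (changes ± SE). Of the S6 kinases, Rps6kb2 had 1 probe, detected on 0 arrays, and Rps6kb1 was matched to 0 probes, so neither was tested.

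The FOXO factors are held out of the nucleus once AKT phosphorylates them. Their own transcripts were dim and did not separate. Foxo1 stood at 5.21, 5.02 and 5.31 with insulin, against 5.20, 5.22 and 5.56 with vehicle, a log2 change of -0.15 ± 0.14 (SE, limma adjusted p = 0.758). It was -0.029 without vehicle replicate 3 and -0.060 with the deposited normalized values. Foxo3 stood at 6.13, 5.79 and 5.86 with insulin, against 5.84, 6.07 and 6.21 with vehicle, a log2 change of -0.11 ± 0.14 (SE, limma adjusted p = 0.834). It was -0.025 without vehicle replicate 3, -0.21 without insulin replicate 1 and -0.058 with the deposited normalized values. In both genes the arrays of the groups were interleaved. FOXO proteins were not measured, and whether they had a part in the fall of Fbxo32 was not tested. Foxo4 had 1 probe, detected on 0 arrays.

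The remaining components were the RabGAP proteins through which AKT controls transport of glucose transporters, and the Rag GTPases that report amino acids to mTOR complex 1. Tbc1d1 had a log2 change of 0.15 ± 0.14 and Tbc1d4, detected on 3 arrays, one of -0.073 ± 0.14 (SE). Rraga had 0.038 ± 0.14 and Rragc, a bright probe, 0.11 ± 0.13 (SE), while the 2 probes for Rragd were detected on at most 1 array.

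**Figure D2:**
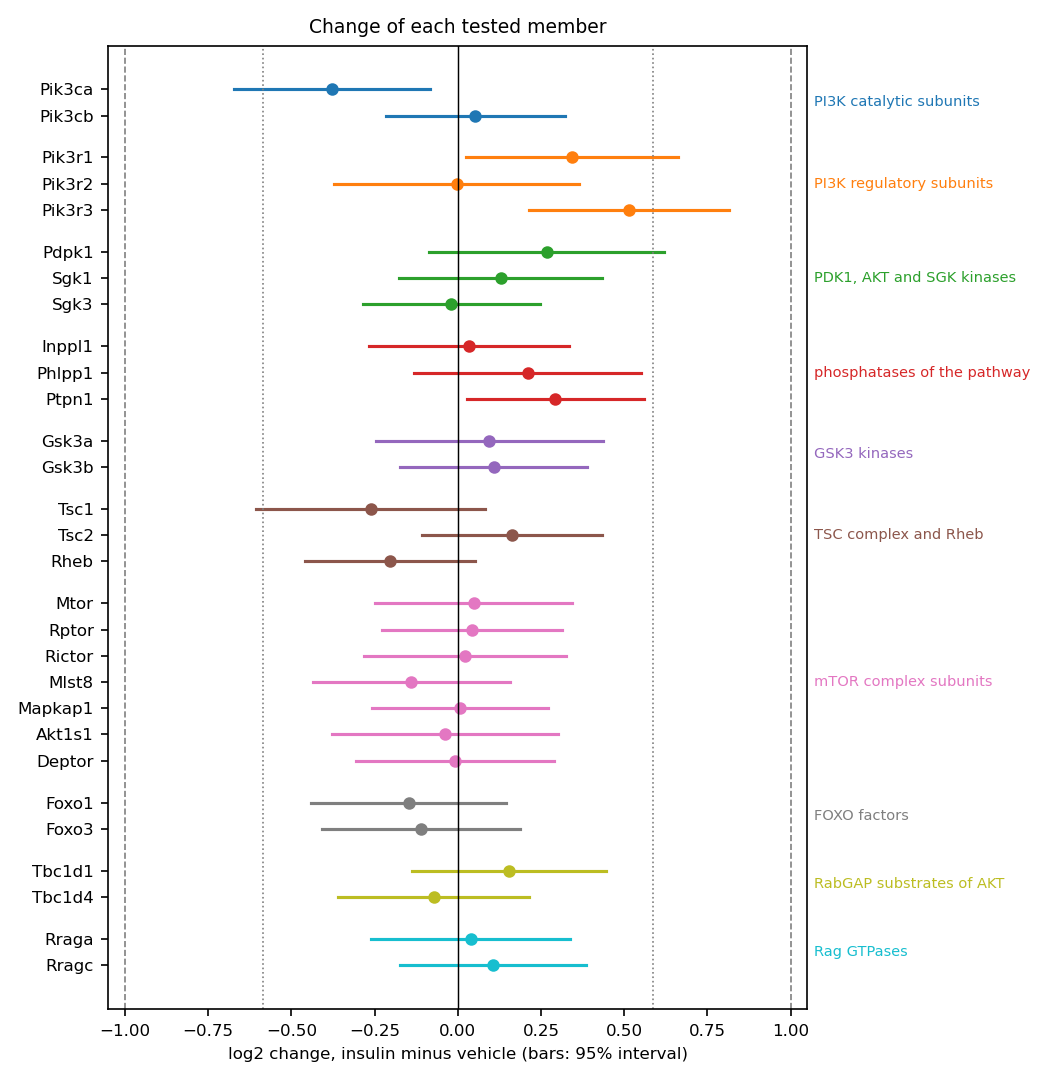
Log2 change of insulin minus vehicle for each of the 29 tested genes, grouped by role, as the limma estimate (point) with its 95% interval (bar). Dotted lines mark a 1.5-fold and dashed lines a 2-fold change in either direction. All 29 intervals stay inside the 2-fold lines and 24 stay inside the 1.5-fold lines, with Pik3r3 farthest to the right at 0.51 and Pik3ca farthest to the left at -0.38.

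Across the 29 genes the median log2 change was 0.038, against -0.015 over all genes tested. A positive sign was found in 18, or 62.1%, against 46.0% of all genes, and a negative one in 11. Without vehicle replicate 1 the median was -0.0069, on the other side of 0, and without insulin replicate 2 it was 0.059. For 29 of 29 genes the 95% interval lay within a 2-fold change in either direction, as it did for 99.5% of all genes. It lay within a 1.5-fold change for 24 of 29, or 82.8%, against 87.9% of all genes. The 5 whose interval reached beyond 1.5-fold were Pik3ca, Pik3r1, Pik3r3, Pdpk1 and Tsc1. For dim probes such as Gsk3a, Tbc1d4, Rraga and Deptor, the added offset of 16 shrinks differences near the floor, so their intervals say less about the transcript.

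Standard errors of further probes are from a fit over all detected probes. Probes of the same gene gave a further view, though they share the 6 RNA samples. The genes had 90 probes, of which 52 were detected on at least 3 arrays. Of 14 genes with more than 1 detected probe, 6 had the same sign on all of them, or 42.9%, against 50.9% of the 3746 such genes on the array. The 6 were Pik3r1, Pik3r3, Pdpk1, Inppl1, Mtor and Tbc1d1, all positive. For Gsk3b, Tsc1, Tsc2, Rptor, Rictor, Mlst8, Mapkap1 and Pik3r2 the sign depended on the probe.

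**Figure D3:**
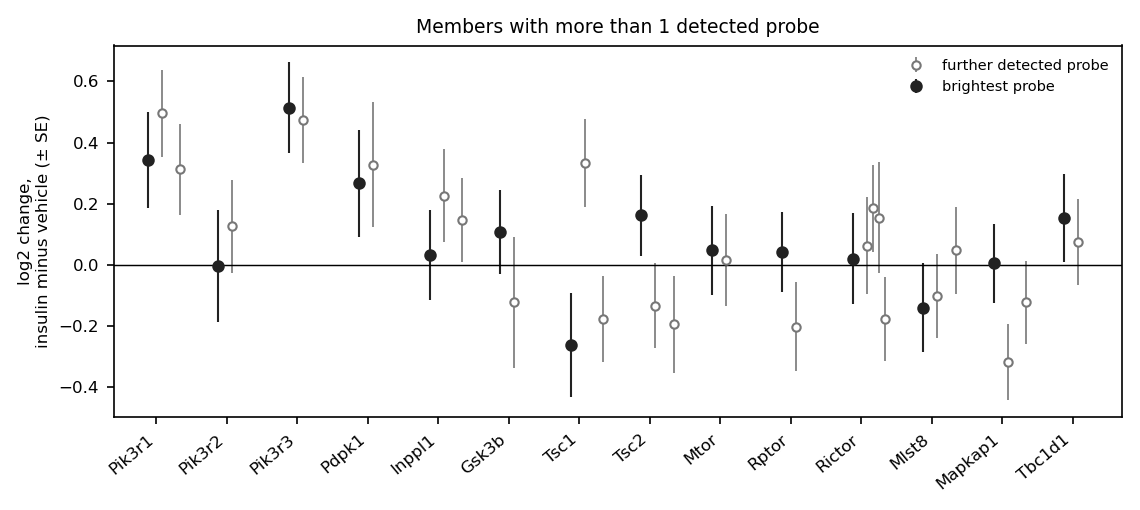
Log2 change of insulin minus vehicle with its standard error for each detected probe of the 14 genes that had more than 1. Filled points are the brightest probe, used in the test, and open points the further probes. Pik3r1 and Pik3r3 lie above 0 on all their probes, between 0.31 and 0.51, while the 3 Tsc1 probes run from -0.26 to 0.33.

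The sequence before the transcription start is shown for the 5 genes with an unadjusted p under 0.05 or with insulin and vehicle arrays that did not overlap. Each is the 250 bases upstream of the start lying farthest 5′ in RefSeq on GRCm38.p6, in the direction of transcription, and the arrays do not tell which start the cells used. Capitals mark matches on either strand to 5 motifs, namely GTAAACA (bound by FOXO factors), CACGTG (the E-box bound by MYC and others), TGACGTCA (the element of CREB), CCGGAAG (ETS factors) and GGGCGG (the GC box).
Pik3r3, chr4:116221166-116221415, plus strand: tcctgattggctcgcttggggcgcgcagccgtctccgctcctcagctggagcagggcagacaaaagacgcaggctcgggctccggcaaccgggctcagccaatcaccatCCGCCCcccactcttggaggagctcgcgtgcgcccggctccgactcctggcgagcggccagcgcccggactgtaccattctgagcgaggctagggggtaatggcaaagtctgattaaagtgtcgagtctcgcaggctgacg
Pik3r1, chr13:101768218-101768467, minus strand: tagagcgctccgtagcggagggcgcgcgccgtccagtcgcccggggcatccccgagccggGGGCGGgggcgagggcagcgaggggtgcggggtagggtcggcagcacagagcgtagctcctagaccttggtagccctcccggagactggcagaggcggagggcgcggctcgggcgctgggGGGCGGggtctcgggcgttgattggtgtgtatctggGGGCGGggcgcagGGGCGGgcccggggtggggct
Pik3ca, chr3:32396815-32397064, plus strand: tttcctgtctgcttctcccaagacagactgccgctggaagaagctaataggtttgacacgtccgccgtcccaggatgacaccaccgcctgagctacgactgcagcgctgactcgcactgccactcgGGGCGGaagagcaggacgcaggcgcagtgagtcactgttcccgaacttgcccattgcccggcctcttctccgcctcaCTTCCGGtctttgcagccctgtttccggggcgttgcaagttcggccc
Ptpn1, chr2:167932077-167932326, plus strand: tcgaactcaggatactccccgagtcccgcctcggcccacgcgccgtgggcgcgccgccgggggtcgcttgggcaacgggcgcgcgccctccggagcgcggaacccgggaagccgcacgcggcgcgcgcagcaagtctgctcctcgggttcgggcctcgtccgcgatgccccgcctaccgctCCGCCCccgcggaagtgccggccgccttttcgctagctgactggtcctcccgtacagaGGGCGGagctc
Rheb, chr5:24842362-24842611, minus strand: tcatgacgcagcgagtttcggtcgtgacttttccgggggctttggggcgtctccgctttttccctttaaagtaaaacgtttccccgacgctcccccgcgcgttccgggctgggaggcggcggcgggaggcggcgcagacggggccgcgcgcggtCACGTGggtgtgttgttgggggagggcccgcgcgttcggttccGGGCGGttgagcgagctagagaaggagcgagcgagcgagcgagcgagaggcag

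All 5 held a GC box, and Pik3r1 held 4. Pik3ca had an ETS match that begins 47 bases before the start, and Rheb an E-box match that begins 96 bases before it. Promoter windows from 250 bases before to 50 bases after the start were in the table for 32 of the 36 genes, 50 windows in all. The GC box was in 60% of these windows, against 35.7% of all 32851 windows, and the ETS motif in 16%, against 8.86%. The FOXO motif was in 6%, those of Akt1 and Mapkap1, against 3.65%, and the E-box in 6%, those of Rheb, Rragc and Sgk1, against 7.15%. The CREB motif was in 0 of the 50 windows, against 1.79% of all. A match of letters is not a bound site, and the windows of 1 gene can overlap. The set of all windows was not matched to these genes for expression or GC content, so the shares do not show a trait of the pathway.

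Other genes of the pathway were taken from 4 lists by role, also chosen with earlier results of these data known. Of the 73 genes in all, 49 were tested and 0 passed (limma, Benjamini-Hochberg). At an unadjusted p under 0.05 there were 2 higher and 7 lower, together 18.4%, where 4.80% of all genes were higher and 6.15% lower. The groups did not overlap in 9, also 18.4%, near the 15.9% of all genes. The median log2 change of the 49 was -0.098, with 32 negative and 17 positive, or 34.7%, against 46.0% of all genes.

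Of 18 further PI3K and phosphoinositide enzymes 7 were tested, with 1 positive sign and a median of -0.24. Pik3c3, the class III kinase Vps34 that acts in autophagy and endosome traffic, stood at 7.84, 7.99 and 7.70 with insulin, against 8.12, 8.38 and 8.35 with vehicle. The groups did not overlap, and the log2 change was -0.44 ± 0.13 (SE, limma adjusted p = 0.202). Inpp5e, a phosphoinositide 5-phosphatase of primary cilia, had a log2 change of -0.41 ± 0.15 (SE, limma adjusted p = 0.336) with overlapping groups.

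Of 10 further AKT-related kinases, regulators and FOXO factors 3 were tested. Sgk2, the remaining member of the SGK family, read 6.17, 6.14 and 6.14 with insulin, against 6.58, 6.67 and 6.79 with vehicle. The arrays of each group lay close together and apart from the other group, for a log2 change of -0.53 ± 0.12 (SE) and a limma adjusted p of 0.0748, the smallest in these lists. A second Sgk2 probe gave -0.17 ± 0.13 (SE). Trib3, a pseudokinase that binds AKT, had a log2 change of 0.062 ± 0.13 (SE).

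Nutrient and stress inputs of mTOR complex 1 numbered 31, of which 26 were tested, 10 with a positive sign, at a median of -0.085. Rhebl1, a relative of Rheb, had a log2 change of -0.39 ± 0.14 (SE, limma adjusted p = 0.308) and Ddit4l, a relative of the stress-induced mTOR inhibitor Ddit4, one of -0.34 ± 0.13 (SE, limma adjusted p = 0.374). Substrates of mTOR complex 1 and S6 kinase numbered 14, of which 13 were tested, at a median of -0.10. Eif4ebp2, a repressor of cap-dependent translation that mTOR complex 1 inactivates, stood at 7.69, 8.06 and 7.17 with insulin, against 6.67, 7.39 and 6.66 with vehicle. Insulin replicate 3 lay below vehicle replicate 2, so the groups overlapped, and the log2 change was 0.74 ± 0.21 (SE, limma adjusted p = 0.176). Without insulin replicate 3, the insulin array that overlapped, Eif4ebp2 passed, with a log2 change of 0.97 (limma adjusted p = 0.0249, with the 15 alternatives spanning 0.0142 to 0.516). It did not pass when any other array was left out. The log2 change was then between 0.53 without insulin replicate 2 (limma adjusted p = 0.516) and 0.98 without vehicle replicate 2 (limma adjusted p = 0.104). Maf1, a repressor of RNA polymerase III, had a log2 change of -0.34 ± 0.14 (SE) without overlap (limma adjusted p = 0.398).

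**Figure D4:**
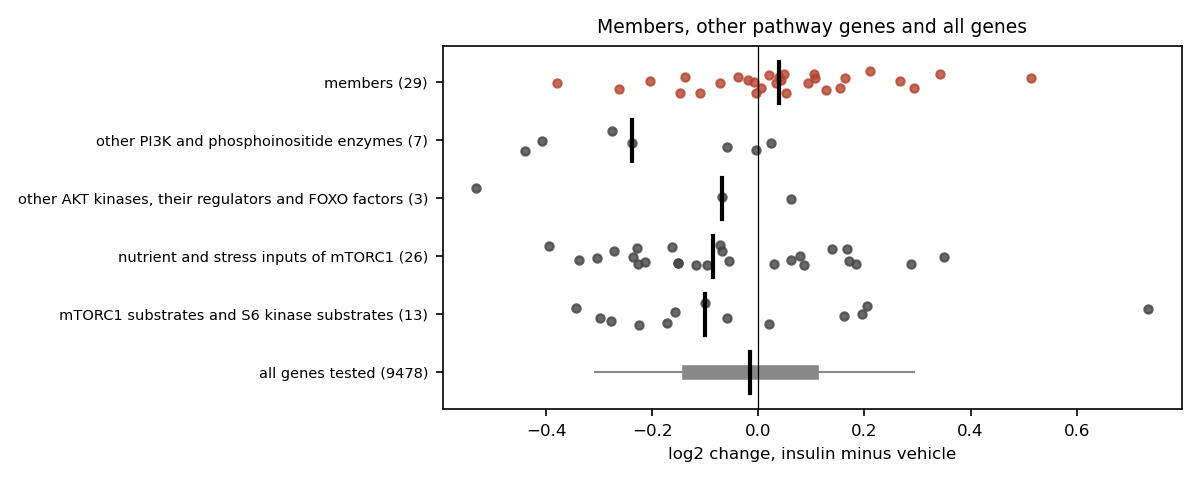
Log2 change of insulin minus vehicle for the 29 tested pathway genes and the 49 tested genes of the 4 further lists, 1 point per gene with a black line at each median. The bottom row gives all 9478 genes, with a thick bar from the 25th to the 75th and a thin line from the 5th to the 95th percentile (-0.31 to 0.29). Medians of the further lists lie between -0.24 and -0.068, against 0.038 for the 29 genes, and Eif4ebp2 stands farthest right at 0.74.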

How the data were processed

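Total RNA from 3 insulin and 3 vehicle samples was amplified to biotin-labelled cRNA and hybridised to Illumina arrays, per the labels' protocols. The authors deposited non-normalized probe intensities with a detection p-value per probe and array, per the file headers, exported with GenomeStudio per the submitters' processing notes (version not given in the sources used here). A second deposited table holds linear intensities that equal a quantile normalization of the first within 3.33e-06.

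The non-normalized intensities were background corrected, quantile normalized and put on the log2 scale with neqc (limma 3.58.1, R 4.3.3, offset 16). Probes with a detection p under 0.05 on at least 3 of the 6 arrays were kept (17482 of 45281). Symbols came from the platform annotation: 34885 probes had 1 symbol, 18 several and 10378 none. The brightest probe stood for a gene. Groups were compared with limma's moderated test (lmFit and eBayes, two-sided, no replicate block), with Benjamini-Hochberg adjustment over 9478 genes. The number of arrays limits the precision. The procedure was tested on simulated data.

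The members and lists were chosen with earlier results of these data known. Values per array are given for members whose groups did not overlap or whose unadjusted p was under 0.05, and for some others as examples. Each further list is represented by the genes past the threshold or else the 2 with the smallest p. Fbxo32 was picked with its value known. The alternatives were the deposited normalized values, normexp and neqc with offset 50, median scaling, other filters, the mean of a gene's probes, trended robust variances, a replicate block and leaving out each array.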

Additional observations from a re-analysis of the deposited data

How the results depend on the processing

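Over all genes 44 passed. The count was 22 with the deposited normalized values, 29 with normexp, 28 with neqc at offset 50 and 83 with trended, robust variances. With no filter on dim probes it was 0 by limma. Leaving out 1 array gave 3 to 69, the lowest without vehicle replicate 3 and the highest without insulin replicate 3. With the replicate block 75 genes passed. Deviations of same-numbered samples from their group means correlated at 0.090, 0.152 and 0.131, and every sample correlated best with its own number, a hint from the data and not from the design, so they were not treated as pairs. Of the 29 pathway genes 1 passed with trended, robust variances (Pik3r3) and 0 in the other 14 alternatives. Of the 49 further genes 1 (Eif4ebp2) passed with the replicate block, and 0 to 1 when an array was left out. Of the 29 genes 13 kept their sign in every alternative that gave a value. Pik3r2, at -0.0035, became 0.0014 with the deposited values, 0.0011 with normexp, 0.00078 with neqc at offset 50, 0.018 with median scaling and 0.061 with the mean of its probes. Median scaling gave -0.0064 for Inppl1, -0.013 for Rictor, -0.028 for Mapkap1 and 0.033 for Deptor. The mean of detected probes gave -0.0070 for Gsk3b, -0.055 for Tsc2, -0.079 for Rptor and -0.14 for Mapkap1. Leaving out 1 array gave log2 changes on both sides of 0 for 14 genes: Pik3cb from -0.0044 to 0.11, Pik3r2 from -0.12 to 0.20, Sgk1 from -0.017 to 0.22, Sgk3 from -0.092 to 0.021, Inppl1 from -0.081 to 0.11, Gsk3a from -0.053 to 0.25, Mtor from -0.047 to 0.19, Rptor from -0.017 to 0.13, Rictor from -0.072 to 0.14, Mapkap1 from -0.033 to 0.077, Akt1s1 from -0.24 to 0.093, Deptor from -0.12 to 0.097, Tbc1d4 from -0.14 to 0.0028 (in the 3 of 6 cases that kept its probe) and Rraga from -0.041 to 0.18. Genes that kept their sign still moved, such as Tsc1 from -0.47 to -0.10 and Mlst8 from -0.28 to -0.061, and the median of the 29 ran from -0.0069 to 0.059. The cause was not tested, except that fewer arrays, more genes tested or a larger offset follow from how an alternative is built. Slide as a block was not run, since the files used name no slide, and Gsk3a and Tbc1d4 have no value where detection on all 6 arrays is required. Signals near background limit the dimmest genes.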
